A study of Mus musculus with 8 samples.

Results

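The genes described are 49 named genes of the dividing cell, 24 that act in S phase (DNA replication) and 25 that act in mitosis. They were chosen by name, each taken as its transcript of highest mean level, out of 23952 gene symbols in the table. All 49 passed the filter on low values, together with 13311 genes in all. Expression was measured by RNA sequencing of Lewis lung carcinoma (LLC) tumors, grown under the skin of mice from a mouse lung carcinoma cell line. The 8 libraries form 4 groups of 2. LLC are tumor cells sorted for dTomato, a red fluorescent protein that the line was transfected with and kept under G418 selection. TAM are tumor-associated macrophages, labelled M2, sorted as positive for F4/80 and for fluorescent collagen injected 24 h earlier, and negative for dTomato and GFP. Fibroblast are host cells sorted for GFP, which the transgenic host mice express from Col1a1, so that a cell of another type with an active Col1a1 would pass the gate too. Total tumor is the tumor with no sorting named in its labels. All 4 groups come from tumors injected with collagen in Col1a1-GFP hosts, and no tumor-free tissue is among them. The sources used here do not give the strain, age or number of mice. Nor do they say if different animals stand behind the 2 libraries of a group. A p-value covers the spread between such libraries, pooled over all 4 groups, and that spread may be technical.

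A cell that divides first licenses its replication origins by loading the MCM ring onto DNA, then fires them and copies the genome with polymerases that run on a sliding clamp. It later condenses and separates the copies on the mitotic spindle, under a checkpoint that holds the anaphase-promoting complex (APC/C) back until every chromosome is attached. Genes of the first step are known targets of the E2F transcription factors, and many genes of the second are held by the DREAM complex at a promoter element called CHR and activated by NF-Y at CCAAT boxes and by FOXM1. Both sets are low in resting cells, and for that reason they are widely read as a measure of how many cells of a sample are in the cell cycle.

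Levels are RPKM (reads per kilobase of transcript and per 1e6 reads), as the authors deposited them. Differences are on the log2(RPKM + 1) scale, which understates the change of low genes, and were tested with limma over all 13311 genes, with calls at a Benjamini-Hochberg adjusted p under 0.05. The estimated depth ran from 4.28 to 10.37 M reads (M, 1e6) a library, and in every group the second library had fewer. The fewest reads behind a member were about 3.2, for Ccnb1 in Fibroblast 2, where the median member had 50 reads. Macrophage markers summed to 15300 and 19800 RPKM in the TAM libraries, against 85.5 to 505 RPKM in LLC and Fibroblast, and fibroblast markers to 22800 and 24500 RPKM in Fibroblast, against 134 to 4990 RPKM in LLC and TAM. No marker list was available for LLC cells. Across all genes the median difference was 0.38 for LLC minus TAM, 0.46 for LLC minus Fibroblast, 0.13 for TAM minus Fibroblast, and, against Total tumor, -0.03 for LLC, -0.36 for TAM and -0.51 for Fibroblast, and the members' values are to be read against these.

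The members stood higher in LLC and Total tumor than in TAM and Fibroblast. As a median over the members, TAM stood at 31.4% of the LLC mean, Fibroblast at 18.2% and Total tumor at 125%. No member was listed at 0 in any library. In bulk RNA, fewer cells that express a gene and less RNA of it per cell cannot be told apart.

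**Figure D1:**
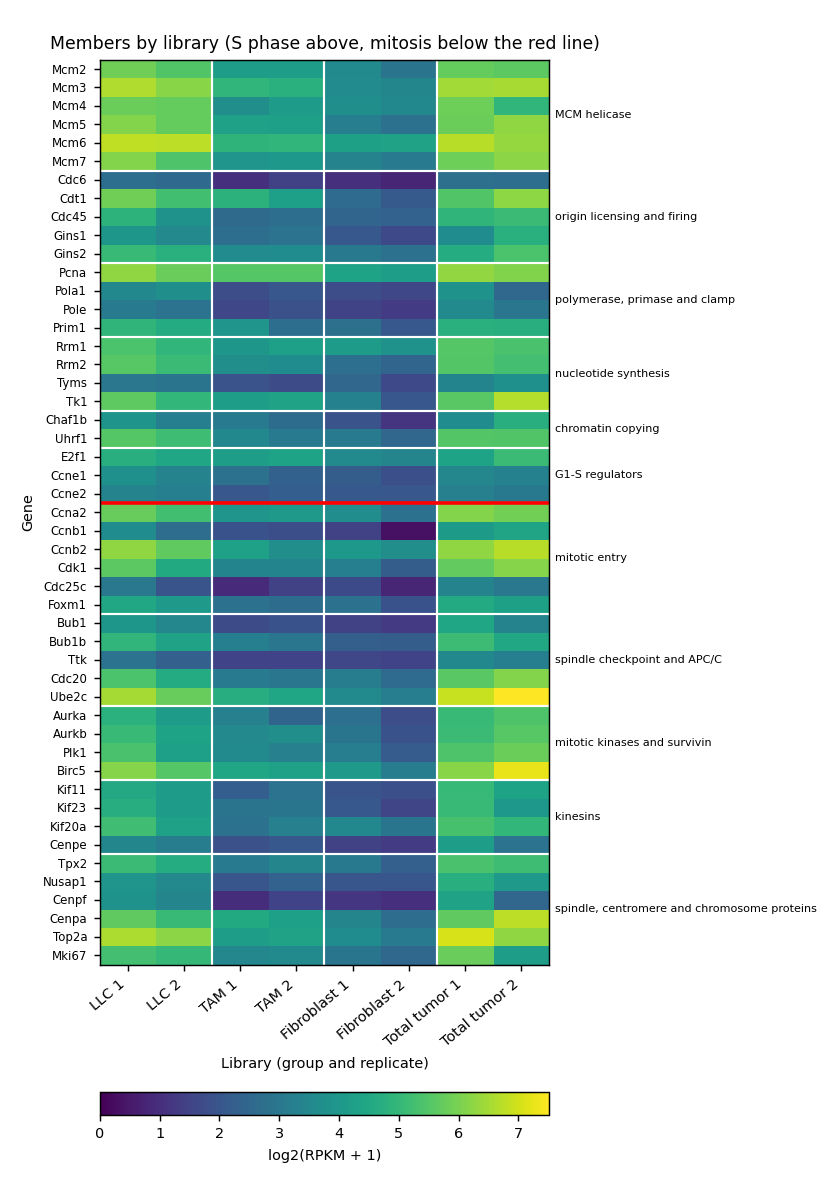
Level of each of the 49 members, as log2(RPKM + 1), in each of the 8 libraries, in rows grouped by role with S phase above the red line and mitosis below it. The LLC and Total tumor columns are bright in nearly every row, and the TAM and Fibroblast columns are darker, with Ccnb1 in Fibroblast 2 (0.274 RPKM) the darkest cell.

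Promoters of the 2 classes are shown because E2F, CHR and CCAAT letters are known elements of such genes. Promoter windows from RefSeq on GRCm38.p6, 250 bases before to 50 after the transcription start, were matched by symbol for 38 of the 49 members, 19 of each class (the deposited table itself was made on mm9). The members without one are Mcm4, Gins1, Gins2, Pole, Ccne2, Ccna2, Cdc25c, Foxm1, Aurkb, Kif20a and Tpx2. The E2F letters searched, on both strands, were TTTCCCGC, TTTCGCGC, TTTGCCGC and TTTGGCGC. They were in 36.8% of S phase windows and 5.26% of mitosis windows, against 2.32% of all 27025 promoters of this length and 4.0% of those of tested genes. The CHR letters searched were TTTGAA and, for the other strand, TTCAAA. They were in 10.5% of S phase windows and 73.7% of mitosis windows, against 18.1% of all promoters and 11.7% of those of tested genes. CCAAT was searched together with ATTGG, its other strand. It was in 63.2% of S phase and 89.5% of mitosis windows, against 37.9% of all and 38.6% of tested genes. CHR letters together with at least 2 CCAAT boxes were in 10 of the 19 mitosis windows and 1 of the 19 S phase windows, against 2.19% of all promoters. A match of letters is a description, not a binding site.

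The 150 bases before the start are printed 5′ to 3′ for 2 S phase and 4 mitosis members, picked because motif letters fall in them, with E2F, CHR and CCAAT letters in capitals. Mcm6 lies at chr1:128359706-128359855 on the minus strand, Cdc6 at chr11:98908001-98908150 on the plus strand, Cdk1 at chr10:69352913-69353062 on the minus strand, Cdc20 at chr4:118437344-118437493 on the minus strand, Ube2c at chr2:164769779-164769928 on the plus strand, and Top2a at chr11:99024190-99024339 on the minus strand.
Mcm6: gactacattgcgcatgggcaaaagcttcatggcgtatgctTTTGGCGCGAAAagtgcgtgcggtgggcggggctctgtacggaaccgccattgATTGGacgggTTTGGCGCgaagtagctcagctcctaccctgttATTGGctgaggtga
Cdc6: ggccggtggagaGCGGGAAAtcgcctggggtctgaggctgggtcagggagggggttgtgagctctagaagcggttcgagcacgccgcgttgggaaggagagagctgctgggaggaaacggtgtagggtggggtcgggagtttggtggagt
Cdk1: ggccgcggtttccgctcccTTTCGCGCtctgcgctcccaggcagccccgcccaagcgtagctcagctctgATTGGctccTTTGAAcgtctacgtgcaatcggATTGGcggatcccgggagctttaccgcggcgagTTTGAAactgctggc
Cdc20: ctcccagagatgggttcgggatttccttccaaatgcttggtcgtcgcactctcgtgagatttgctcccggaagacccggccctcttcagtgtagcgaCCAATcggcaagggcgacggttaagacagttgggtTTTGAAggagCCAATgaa
Ube2c: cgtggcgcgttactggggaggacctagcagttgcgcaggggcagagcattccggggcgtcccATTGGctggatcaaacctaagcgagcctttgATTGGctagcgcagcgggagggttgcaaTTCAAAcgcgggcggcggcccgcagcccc
Top2a: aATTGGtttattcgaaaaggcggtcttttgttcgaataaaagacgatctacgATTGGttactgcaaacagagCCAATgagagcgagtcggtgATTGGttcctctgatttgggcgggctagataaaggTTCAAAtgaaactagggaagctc
In Mcm6, a pair of E2F matches on opposite strands shares letters 110 and 106 bases before the start, and another begins 47 bases before it. In Cdc6 the one match begins 138 bases before the start. The CHR letters begin 15 bases before the start in Cdk1, 18 in Cdc20, 29 in Ube2c and 23 in Top2a. Cdk1 holds both kinds, with E2F letters 131 bases before the start and a further CHR match at 71.

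The first question was whether tumor cells and macrophages differ in these genes. LLC were higher than TAM for 39 of the 49 members (79.6%), against 27.5% of all genes tested, and lower for 0 members, against 15.4% of all genes. All 10 members that did not pass were higher in LLC too. An unadjusted p under 0.05 was found for 44 members, against 6773 of all 13311 genes tested, in either direction. The called members were 18 of 24 in S phase and 21 of 25 in mitosis, with median differences of 1.35 and 1.55. Both LLC libraries lay above both TAM libraries in 49 of 49 members, against 50.9% of all genes. The count was 15 without LLC 1 and 23 without TAM 1.

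LLC were likewise higher than Fibroblast for 47 of the 49 members, against 25.7% of all genes, and lower for 0, against 13.0% of all genes. The median difference was 2.02 in S phase and 2.25 in mitosis. The exceptions were Tyms and Cdc25c. Tyms, thymidylate synthase, had a difference of 0.87 (SE 0.34, adjusted p = 0.0751). Its kept transcript, 1 of 2 listed for the symbol, is one that RefSeq lists as non-coding. Cdc25c, a phosphatase that activates Cdk1, had a difference of 1.22 (SE 0.46, adjusted p = 0.0688). Both LLC libraries lay above both Fibroblast libraries in 49 of 49 members, against 56.6% of all genes. The count was 28 without LLC 1 and 28 without Fibroblast 2. A call held under every one of 18 alternative settings for 15 members against TAM and for 27 against Fibroblast, among them all 6 MCM genes in both. The share of all genes whose calls held was not computed, so these counts have no background to be read against.

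The MCM helicase, the ring of Mcm2 to Mcm7 that unwinds DNA ahead of the fork, was higher in LLC for 6 of 6 subunits against TAM and for 6 of 6 against Fibroblast. Mcm6 had 111 and 107 RPKM in LLC, 28.5 and 30.0 in TAM, 18.4 and 19.1 in Fibroblast, and 104 and 78.8 in Total tumor. Its difference was 1.87 for LLC minus TAM (SE 0.22, adjusted p = 0.000521) and 2.48 for LLC minus Fibroblast (SE 0.22, adjusted p = 0.00037). Its libraries agreed closely within each sorted group, and the 3 groups did not overlap.
Mcm3 had 97.8 and 71.4 RPKM in LLC, 29.6 and 26.5 in TAM, 11.4 and 9.83 in Fibroblast, and 87.3 and 91.7 in Total tumor. Its difference of 1.32 for TAM minus Fibroblast was called (SE 0.24, adjusted p = 0.00326), and that of Mcm6 was 0.61 (SE 0.22, adjusted p = 0.0711). The other subunits, Mcm2, Mcm4, Mcm5 and Mcm7, lay between 26.2 and 34.3% of LLC in TAM and between 11.9 and 21.0% in Fibroblast.

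Of the origin licensing and firing factors, 3 of 5 were higher in LLC than in TAM and 5 of 5 than in Fibroblast. Cdt1, which loads the MCM ring together with Cdc6, had 57.6 and 36.9 RPKM in LLC, 27.2 and 18.1 in TAM, 5.2 and 3.38 in Fibroblast, and 43.4 and 74.9 in Total tumor. It had the lowest Fibroblast level of any member relative to LLC, 9.08%, while TAM reached 48.0%. Its difference was 3.18 for LLC minus Fibroblast (SE 0.38, adjusted p = 0.000825) and 1.02 for LLC minus TAM (SE 0.38, adjusted p = 0.0608), which missed the threshold although the libraries did not overlap.
Gins2, a subunit of the GINS complex that joins the MCM ring to form the active helicase, had 33.3 and 26.2 RPKM in LLC, 11.3 and 11.7 in TAM, 7.17 and 5.92 in Fibroblast, and 24.1 and 40.6 in Total tumor. It was called in LLC against TAM (difference 1.29, SE 0.30, adjusted p = 0.00999) and against Fibroblast (2.02, SE 0.30, adjusted p = 0.00191). Cdc6 and Cdc45, which completes the active helicase with GINS, stood at 26.4 and 26.1% of LLC in TAM.

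The polymerase, primase and clamp genes split. Pcna, the sliding clamp, which also serves in DNA repair, had 76.7 and 55.0 RPKM in LLC, 45.7 and 45.0 in TAM, 19.6 and 17.0 in Fibroblast, and 77.4 and 67.4 in Total tumor. TAM stood at 68.9% of LLC, and the difference of 0.51 (SE 0.24, adjusted p = 0.129) had a 95% interval from -0.05 to 1.07. TAM minus Fibroblast was 1.27 for Pcna (SE 0.24, adjusted p = 0.00448).
Prim1, the primase that starts each new strand, had 29.3 and 23.6 RPKM in LLC, 14.1 and 5.58 in TAM, 5.82 and 3.19 in Fibroblast, and 26.3 and 25.1 in Total tumor. Its TAM libraries lay far apart, and TAM and Fibroblast overlapped. Pola1 and Pole, polymerase catalytic subunits, were at 24.4 and 33.3% of LLC in TAM, and both were called in LLC against TAM and Fibroblast.

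Genes of nucleotide synthesis ran from 29.7 to 46.1% of LLC in TAM and from 12.7 to 50.2% in Fibroblast. Tk1, the thymidine kinase of S phase, had 49.6 and 30.3 RPKM in LLC, 17.5 and 19.3 in TAM, 8.96 and 3.09 in Fibroblast, and 46.8 and 102 in Total tumor. Its difference was 2.64 for LLC minus Fibroblast (SE 0.51, adjusted p = 0.00619) and 1.04 for LLC minus TAM (SE 0.51, adjusted p = 0.141). Its libraries spread widely within Fibroblast and Total tumor.
Rrm1, the large subunit of ribonucleotide reductase, had 40.9 and 29.7 RPKM in LLC, 14.6 and 17.9 in TAM, 16.8 and 13.2 in Fibroblast, and 45.6 and 39.7 in Total tumor, so that TAM and Fibroblast overlapped. Fibroblast stood at 92.4% of TAM for Rrm1 and at 42.6% for its partner Rrm2, the small subunit made in S phase. Tyms, by its kept transcript listed as non-coding, was the one S phase member with a lower mean in TAM than in Fibroblast. It stood at 2.55 ± 0.378 RPKM in TAM and 3.35 ± 1.69 RPKM in Fibroblast (SD, n = 2 each), but its libraries overlapped.

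Of the genes for copying chromatin, Uhrf1, which brings the maintenance DNA methyltransferase to new DNA, had 45.1 and 35.6 RPKM in LLC, 10.4 and 7.72 in TAM, 7.75 and 4.57 in Fibroblast, and 44.1 and 43.1 in Total tumor. It had the largest difference of the S phase members for LLC minus TAM, 2.04 (SE 0.29, adjusted p = 0.00115). Chaf1b, a subunit of the CAF-1 histone chaperone, had 13.7 and 8.46 RPKM in LLC, 7.31 and 5.29 in TAM, 2.78 and 1.22 in Fibroblast, and 11.6 and 25.6 in Total tumor. It was not called for LLC minus TAM (0.70, SE 0.45, adjusted p = 0.248) and was for LLC minus Fibroblast (2.02, SE 0.45, adjusted p = 0.011).

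The regulators of entry into S phase ran from 38.7 to 81.0% of LLC in TAM and from 28.5 to 45.6% in Fibroblast. E2f1, the transcription factor whose family drives many of the genes above, had 25.6 and 20.5 RPKM in LLC, 17.7 and 19.6 in TAM, 11.2 and 9.79 in Fibroblast, and 19.6 and 33.9 in Total tumor. TAM reached 81.0% of LLC, more than for any other member, and the difference of 0.28 (SE 0.30, adjusted p = 0.478) had a 95% interval from -0.40 to 0.97. Against Fibroblast it was 1.06 (SE 0.30, adjusted p = 0.0257).
Ccne1, cyclin E1, the partner of Cdk2 at the start of S phase, had 12.6 and 9.22 RPKM in LLC, 6.12 and 4.02 in TAM, 3.61 and 2.6 in Fibroblast, and 10.2 and 8.92 in Total tumor. It was called in LLC against TAM (0.98, SE 0.30, adjusted p = 0.0339) and against Fibroblast (1.53, SE 0.30, adjusted p = 0.00677). Ccne2, cyclin E2, was near-equal in TAM and Fibroblast, at 38.7 and 35.4% of LLC.

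The genes of mitotic entry were higher in LLC than in TAM for 4 of 6 members and than in Fibroblast for 5 of 6. Ccnb2, cyclin B2, had 76.1 and 50.8 RPKM in LLC, 18.7 and 12.1 in TAM, 15.1 and 12.2 in Fibroblast, and 75.8 and 104 in Total tumor. Its difference was 1.98 for LLC minus TAM (SE 0.32, adjusted p = 0.00198), and its TAM and Fibroblast libraries overlapped. Ccna2, cyclin A2, which acts in S phase and again before mitosis, had 53.8 and 36.7 RPKM in LLC, 14.2 and 15.4 in TAM, 11.9 and 6.01 in Fibroblast, and 68.5 and 59.7 in Total tumor.
Ccnb1, cyclin B1, the Cdk1 partner that drives entry into mitosis, had 11.5 and 5.45 RPKM in LLC, 2.73 and 2.51 in TAM, 1.79 and 0.274 in Fibroblast, and 16.2 and 20.0 in Total tumor. LLC minus TAM was 1.31 (SE 0.45, adjusted p = 0.0506), just outside the threshold. Cdk1 itself and Foxm1, the transcription factor of late cell cycle genes, were at 26.8 and 30.9% of LLC in TAM.

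All 5 genes of the spindle checkpoint and the APC/C were higher in LLC than in TAM and than in Fibroblast. Ube2c, the ubiquitin-conjugating enzyme that works with the APC/C, had 90.2 and 53.7 RPKM in LLC, 24.6 and 21.0 in TAM, 11.1 and 8.21 in Fibroblast, and 116 and 182 in Total tumor. It had the highest mean over the libraries of any member, 63.4 RPKM. Cdc20, the APC/C activator that the checkpoint inhibits, had 40.9 and 23.6 RPKM in LLC, 7.5 and 6.67 in TAM, 8.07 and 5.22 in Fibroblast, and 46.8 and 68.9 in Total tumor, with LLC minus TAM at 1.99 (SE 0.35, adjusted p = 0.00287). The checkpoint kinases Bub1, Bub1b and Ttk stood at 20.3, 31.4 and 36.3% of LLC in TAM.

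Of the mitotic kinases and survivin, Birc5, which encodes survivin, a subunit of the chromosomal passenger complex, had 69.4 and 45.0 RPKM in LLC, 20.4 and 18.7 in TAM, 15.5 and 8.06 in Fibroblast, and 70.9 and 154 in Total tumor. Plk1, polo-like kinase 1, had 39.7 and 18.1 RPKM in LLC, 10.9 and 8.65 in TAM, 8.19 and 3.55 in Fibroblast, and 42.8 and 55.6 in Total tumor, and its LLC libraries lay further apart on the log2 scale than those of any other member. Both were called in LLC against TAM, with differences of 1.47 for Birc5 (SE 0.44, adjusted p = 0.0293) and 1.39 for Plk1 (SE 0.45, adjusted p = 0.0392). Aurka was called as well (1.62, SE 0.44, adjusted p = 0.0201), while Aurkb, the kinase of the passenger complex, was not (1.09, SE 0.40, adjusted p = 0.0604).

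All 4 kinesins were higher in LLC than in TAM and than in Fibroblast. Kif20a, a motor needed for cytokinesis, had 35.7 and 18.6 RPKM in LLC, 6.04 and 8.65 in TAM, 10.3 and 6.58 in Fibroblast, and 39.3 and 30.4 in Total tumor, with overlap of TAM and Fibroblast. Kif23, a motor of the central spindle, had 24.8 and 16.6 RPKM in LLC, 6.41 and 6.62 in TAM, 3.19 and 1.98 in Fibroblast, and 32.2 and 15.0 in Total tumor. Kif11, which pushes the spindle poles apart, had a difference of 1.77 for LLC minus TAM (SE 0.34, adjusted p = 0.00456), and Cenpe, the kinesin of the kinetochore, 1.35 (SE 0.44, adjusted p = 0.0396).

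Among the spindle, centromere and chromosome proteins, Top2a, the topoisomerase that untangles sister chromatids, had 94.6 and 73.2 RPKM in LLC, 17.6 and 19.3 in TAM, 11.6 and 7.39 in Fibroblast, and 132 and 75.7 in Total tumor. Its difference was 2.11 for LLC minus TAM (SE 0.34, adjusted p = 0.00188) and 3.03 for LLC minus Fibroblast (SE 0.34, adjusted p = 0.000656). Cenpf, a kinetochore protein, had 13.2 and 9.66 RPKM in LLC, 0.976 and 1.87 in TAM, 1.28 and 1.06 in Fibroblast, and 19.3 and 4.63 in Total tumor. At 12.4% of LLC it was the lowest member in TAM, and its difference of 2.37 (SE 0.56, adjusted p = 0.0115) was the largest for LLC minus TAM. That rank depended on the processing. With a pseudocount of 5 the Cenpf difference was 1.35, below 1.91 for Top2a. After quantile normalization it was 1.87, below 2.11 for Top2a.
Cenpa, the histone variant that marks the centromere, had 50.6 and 32.9 RPKM in LLC, 22.5 and 18.1 in TAM, 9.81 and 5.38 in Fibroblast, and 49.8 and 108 in Total tumor. Its TAM level was the highest of the mitosis members relative to LLC, 48.7%, and LLC minus TAM was not called (0.98, SE 0.43, adjusted p = 0.105). Mki67, which encodes the proliferation marker Ki-67, was at 31.0% of LLC in TAM and 16.6% in Fibroblast. Tpx2 and Nusap1, proteins of spindle microtubules, were at 29.3 and 28.9% of LLC in TAM.

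Beside these TAM and Fibroblast levels, transcripts abundant in the other sorted populations were set. Dkk2, Apcdd1 and H19 were abundant in LLC and were picked for that after their values were seen. A low share in the other groups was thus partly fixed by the choice. Carry-over of these transcripts cannot be told from their own expression in TAM or Fibroblast. Their median level was 1.76 and 2.47% of the LLC mean in the TAM libraries, where the members' median was 31.4 and 32.0%. In the Fibroblast libraries it was 14.1 and 9.13%, where the members' median was 23.5 and 14.1%. Macrophage markers stood at a median of 1.18 and 1.6% of their TAM level in Fibroblast. Fibroblast markers stood at a median of 0.632 and 2.68% of their Fibroblast level in TAM and at 9.1 and 8.81% in LLC. The 10 fibroblast markers ranged from 1.13 to 67.6% in LLC 1 and from 3.52 to 65.8% in LLC 2, a spread that the median does not show. The part of carried-over tumor cell RNA in the TAM and Fibroblast values was not tested.

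TAM and Fibroblast were compared next. TAM were higher for 10 of the 49 members (20.4%), close to the 17.4% of all genes tested, and lower for 0, against 17.3% of all genes. A further 8 members had an unadjusted p under 0.05. That made 18 of the 49, a smaller share than the 5740 of all 13311 genes tested, in either direction. The called members were Mcm2, Mcm3, Mcm5, Cdt1, Pcna, Rrm2 and Tk1 in S phase and Ube2c, Aurkb and Cenpa in mitosis. Both TAM libraries lay above both Fibroblast libraries for 33 members (67.3%), against 41.5% of all genes. The largest differences were those of Cdt1, 2.16 (SE 0.38, adjusted p = 0.00291), and Tk1, 1.60 (SE 0.51, adjusted p = 0.0439). Because the spread is pooled over all 4 groups, the Total tumor and LLC libraries enter these tests, though not the differences. The count of 10 was 19 without Total tumor 1 and 19 without Total tumor 2, 6 without LLC 1 and 6 without LLC 2, 3 without Fibroblast 2, 4 without TAM 1 and 5 without TAM 2. Only Cdt1 and Mcm3 were called under all 18 alternatives.

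**Figure D2:**
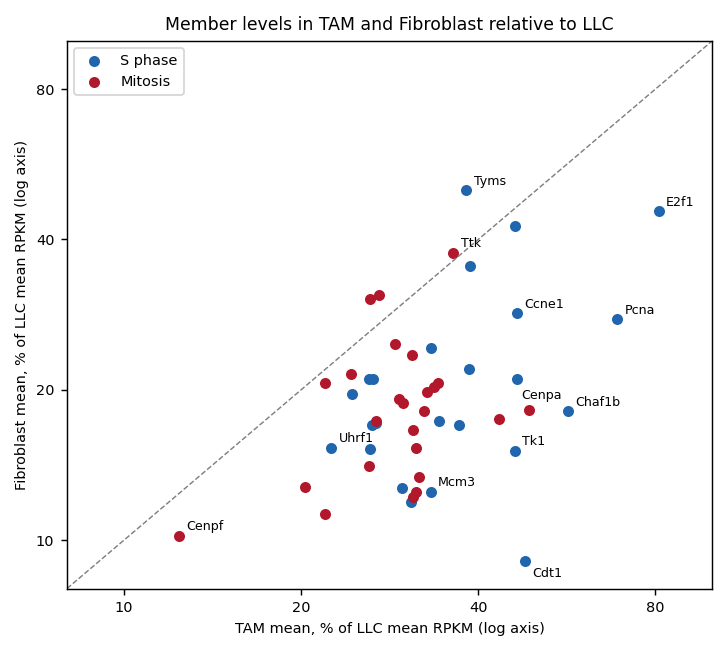
Mean level of each member in TAM (horizontal axis) and in Fibroblast (vertical axis) as a percent of its LLC mean, on log axes, with S phase in blue and mitosis in red. Every point lies below 100% on both axes, most lie under the dashed line of equal levels, E2f1, Pcna and Chaf1b lie furthest to the right, and Cdt1 lies lowest.

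A wider list held 50 other replication and 72 other mitosis genes. LLC were higher than TAM for 35 (70.0%) and 51 (70.8%) of them, against 27.5% of all genes, and higher than Fibroblast for 47 (94.0%) and 65 (90.3%), against 25.7% of all genes, and lower for 0 in each case. TAM were higher than Fibroblast for 11 replication genes (22.0%) and 5 mitosis genes (6.94%), against 17.4% of all genes. Dut, which destroys dUTP before it can enter DNA, had 57.8 and 44.5 RPKM in LLC, 6.77 and 6.62 in TAM, and 6.09 and 4.95 in Fibroblast, with LLC minus TAM at 2.75 (SE 0.35, adjusted p = 0.000672). Tipin, a fork protection factor, followed with 2.74 (SE 0.25, adjusted p = 0.00021), and Fam64a was second to Dut for LLC minus Fibroblast (2.78, SE 0.40, adjusted p = 0.00181).

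Gmnn, which encodes geminin, the inhibitor that binds Cdt1, had the largest TAM minus Fibroblast difference of these other genes. It had 30.5 and 22.6 RPKM in TAM and 3.67 and 3.26 in Fibroblast, a difference of 2.61 (SE 0.28, adjusted p = 0.00029). In LLC it had 32.3 and 26.7 RPKM, so that LLC and TAM overlapped (LLC minus TAM 0.16, SE 0.28, adjusted p = 0.687). Cdt1 among the members and Gmnn among the other genes were thus each the largest of their list in this comparison. Dna2, a nuclease that trims Okazaki fragments, came next, with 3.58 and 7.12 RPKM in TAM and 0.562 and 0.565 in Fibroblast (1.96, SE 0.41, adjusted p = 0.00721).

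LLC were then set against Total tumor. LLC were higher for 0 of the 49 members, against 0.0526% of all genes, and lower for 0, against 2.3% of all genes, by limma's test. Of the 49 members, 4 had an unadjusted p under 0.05, a smaller share than the 1423 of all 13311 genes tested. These 4 were all lower in LLC and all of mitosis: Ube2c, Ttk, Cdc20 and Ccnb1. The median difference was -0.12 in S phase and -0.51 in mitosis. Differences were negative for 23 of the 25 mitosis and 17 of the 24 S phase members, against 7037 of all 13311 genes tested. Without Total tumor 1, Pola1 and Mki67 were called higher in LLC and Ube2c lower.

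The 2 largest differences were those of cyclin B1 and Ube2c. Ccnb1 stood at 8.45 ± 4.25 RPKM in LLC and 18.1 ± 2.66 RPKM in Total tumor (SD, n = 2 each), a difference of -1.09 (SE 0.45, adjusted p = 0.446, 95% interval -2.14 to -0.03). Ube2c stood at 71.9 ± 25.8 RPKM in LLC and 149 ± 46.4 RPKM in Total tumor, a difference of -1.05 (SE 0.34, adjusted p = 0.238, 95% interval -1.84 to -0.27). Neither passed, although the libraries of the groups did not overlap in either gene.

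**Figure D3:**
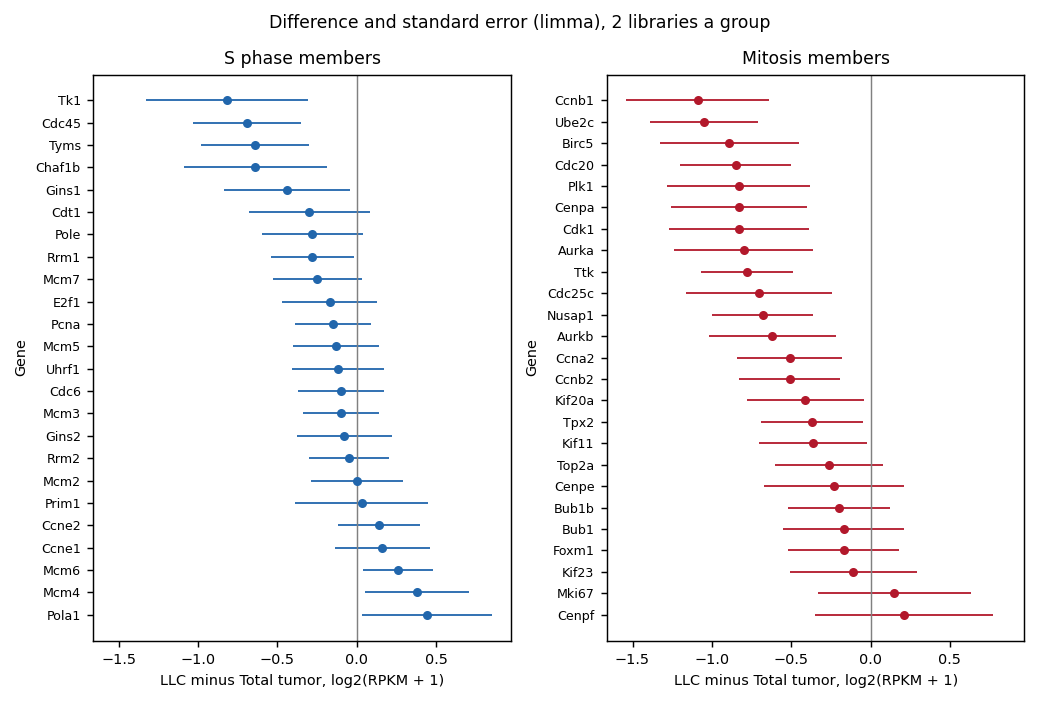
LLC minus Total tumor difference in log2(RPKM + 1) for each S phase member (left) and mitosis member (right), with bars for the limma standard error and 2 libraries a group. The points for mitosis lie further to the left, from -1.09 for Ccnb1 to 0.21 for Cenpf, and none of the 49 passed the test.

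In 15 members both Total tumor libraries lay above all 6 sorted libraries (30.6%), against 2.61% of all genes. They were 13 of the 25 mitosis members, namely Ccna2, Ccnb1, Cdk1, Cdc25c, Ttk, Cdc20, Ube2c, Aurka, Aurkb, Plk1, Birc5, Tpx2 and Nusap1, and 2 of the 24 S phase members, Cdc45 and Tyms. Upper-quartile rescaling left 14 members, quantile normalization 16, and a correction for transcript length 20. The share of all genes is given for the main setting only. Neutrophil markers summed to between 1.82 and 86.7 RPKM in the sorted libraries and to 136 and 601 RPKM in Total tumor, with no overlap. Markers of T and NK cells overlapped, at 2.59 to 24.4 RPKM in the sorted libraries and 60.3 and 13.6 RPKM in Total tumor. So did those of B cells, at 1.18 to 54.9 RPKM in the sorted libraries and 50.7 and 2.3 RPKM in Total tumor, and of endothelium, at 12.4 to 72.5 RPKM in the sorted libraries and 52.9 and 75.1 RPKM in Total tumor. None of the 6 neutrophil markers found was listed at 0 in either Total tumor library, and of 9 T and NK cell markers 1 was, in Total tumor 2. The part of neutrophils in these levels was not tested. How RNA of Total tumor was taken, from tissue or from a cell suspension, is not stated in the sources used.

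TAM were lower than Total tumor for 45 of the 49 members, against 23.9% of all genes, and higher for 0, against 11.3% of all genes. The members that did not pass were Pcna, Chaf1b, E2f1 and Ccne1, all of S phase, and E2f1 had the smallest difference (-0.45, SE 0.30, adjusted p = 0.275). The largest were those of Cdc20, -2.84 (SE 0.35, adjusted p = 0.00142), and Ube2c, -2.63 (SE 0.34, adjusted p = 0.00168). Without TAM 1, 29 members were called. Fibroblast were lower than Total tumor for 49 of 49 members, against 30.0% of all genes, with higher calls in 12.1% of all genes. Ube2c (-3.79, SE 0.34, adjusted p = 0.000548) and Cdt1 (-3.48, SE 0.38, adjusted p = 0.000787) led. These comparisons and LLC minus Total tumor share the Total tumor libraries.

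The balance of the 2 classes within a library was described by the mean log2(RPKM + 1) over the S phase members minus that over the mitosis members. It was 0.06 and 0.30 in LLC, 0.49 and 0.41 in TAM, 0.19 and 0.37 in Fibroblast, and -0.34 and -0.01 in Total tumor. By this mean, both TAM libraries were the highest of the 8 and both Total tumor libraries the lowest, while LLC and Fibroblast overlapped. With 2 libraries a group no test was run on this value. As a median over members in place of a mean, it was 0.36 in LLC, 0.67 in TAM, 0.10 in Fibroblast and 0.13 in Total tumor, so that both the negative sign and the lowest place of Total tumor depended on the mean.

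**Figure D4:**
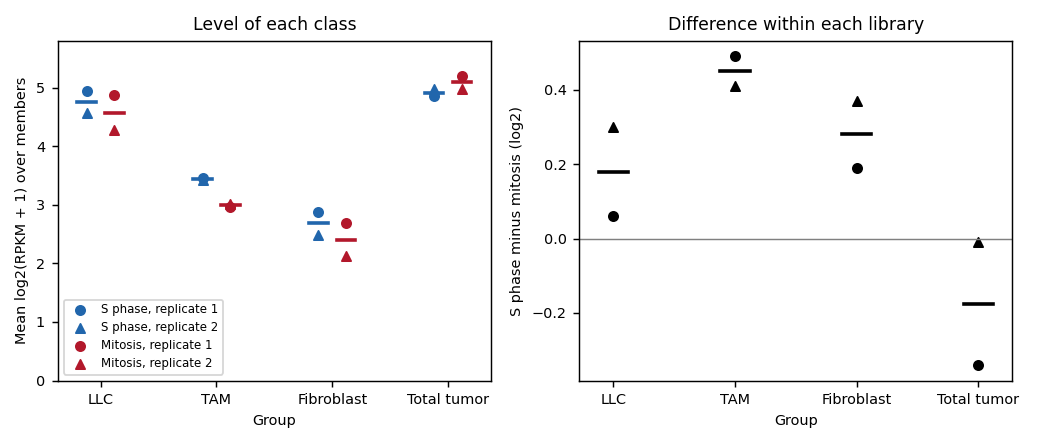
Left, mean log2(RPKM + 1) over the 24 S phase (blue) and 25 mitosis members (red) in each library, with circles for replicate 1, triangles for replicate 2 and bars for the group mean. Right, the difference of the S phase and mitosis means in each library, highest in TAM (0.49 and 0.41) and lowest in Total tumor (-0.34 and -0.01).

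Libraries of one group differed in these genes as well. LLC 2 was lower than LLC 1 in 48 of 49 members, with a median difference of -0.46, where the median of all genes was -0.03. Fibroblast 2 was lower than Fibroblast 1 in 47 of 49 members, with a median of -0.40 and 0.00 for all genes. The medians were -0.57 for mitosis and -0.39 for S phase members in LLC, and -0.57 and -0.28 in Fibroblast. In TAM the median was 0.04, and 22 of the 49 were lower in the second library. The second library had the lower depth in all of these groups, TAM included, and the part of depth in these differences was not tested.

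Replicate differences varied with transcript length, with the largest correlation in Total tumor. Total tumor 2 minus Total tumor 1 was -1.85 for Cenpf, the longest member at 11130 bases, and -1.62 for Mki67 at 10061 bases, against 1.11 for Birc5, the shortest at 947 bases, and 1.12 for Gins1 at 1087 bases. Across the 49 members, Pearson's r with log2 length was -0.76 and Spearman's rho -0.68, and across 13098 genes they were -0.34 and -0.54. These are correlations across genes of the same 2 libraries, which are not independent replicates. In the sorted groups the sign was the other way, with members' r of 0.42 and rho of 0.50 in LLC, 0.47 and 0.50 in TAM, and 0.31 and 0.29 in Fibroblast, and rho over all genes of 0.30, 0.38 and 0.22. The median length was 2984 bases for S phase members and 2965 bases for mitosis members. Levels of long members in Total tumor, such as Mki67 with 54.4 and 17.0 RPKM, are accordingly uncertain. So are those of short members, such as Birc5 with 70.9 and 154 RPKM.

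**Figure D5:**
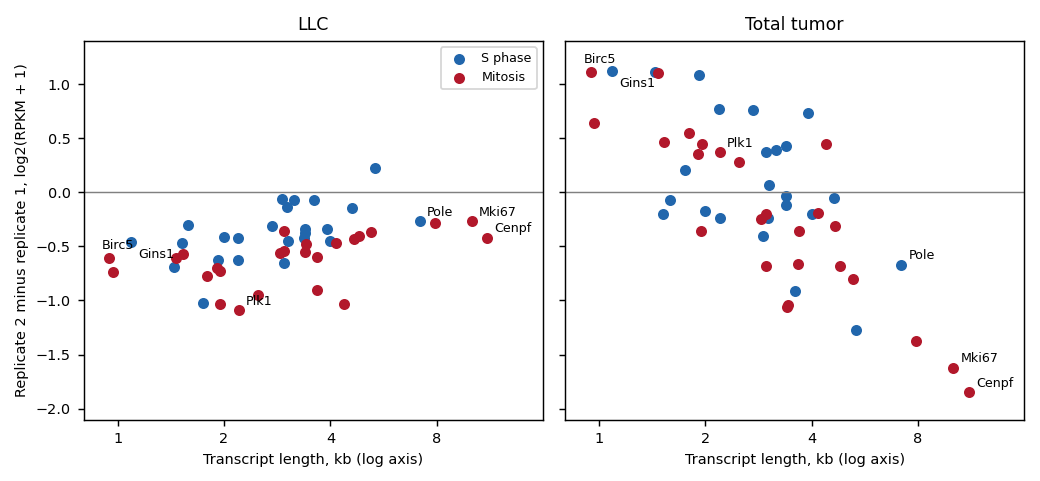
Replicate 2 minus replicate 1 in log2(RPKM + 1) for each member against its transcript length in kb (log axis), in LLC (left) and Total tumor (right), with S phase in blue and mitosis in red. In Total tumor the points fall with length, to -1.85 for Cenpf, and in LLC nearly all lie below 0 at every length.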

How the data were processed

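RNA of 8 libraries was sequenced at 50 bp after oligo-dT priming of 200 ng each, per the labels' protocols. The authors deposited RPKM values per RefSeq transcript, per the file header, and the submitters' processing notes name STAR, HOMER and mm9. The sources used here give no versions, filters, strand setting or read totals, so genes overlapping on opposite strands cannot be told apart.

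Of 31645 transcripts, 3 had no gene name and were dropped (at most 0.0032% of a library's summed RPKM). For each symbol, 1 transcript was kept, the one with the highest mean. Genes with at least 1 RPKM in at least 2 libraries were tested on log2(RPKM + 1), with no rescaling, by limma 3.58.1 in R 4.3.3 (1 fit over all 8 libraries, mean-variance trend, 4 residual and 3.62 prior degrees of freedom), adjusted over 13311 genes. The 95% intervals use the same fit. The procedure was tested on simulated data. Depth was estimated as that at which low RPKM values fall within 0.05 of whole reads (59.7 to 63.8% did), with transcript lengths from GENCODE matched by accession. Read counts are not in the table, so no count test was run, and precision rests on 2 libraries a group.

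The members and lists were chosen with earlier results of these data known. Values of every library are given for the 2 members of highest mean in each of 11 roles and the 2 largest differences of each comparison. Of the other genes, the 2 largest called differences of each direction per comparison of sorted populations are named. Further members were named after their values were seen. The alternatives changed the pseudocount (0.1 or 5), the filter (none, or 5 RPKM) and the rest of the processing: upper-quartile and quantile scaling, a replicate block, only the groups compared, the mean over transcripts, a length correction and leaving out each library.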

Additional observations from a re-analysis of the deposited data

How the results depend on the processing

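Shares of all genes called are given for the main fit only. Counts of members under the alternatives, here and above, thus have no background to be read against. No called difference of a member changed sign under the alternatives run. Among differences that were not called, 11 members changed sign for TAM minus Fibroblast and 25 for LLC minus Total tumor, each under at most 5 of 18 alternatives. The count of members higher in TAM than in Fibroblast, 10 as reported, was 6 with a pseudocount of 5, 6 after upper-quartile rescaling, 17 with only the groups compared and 18 with the length correction, and 3 to 19 without 1 library. Members lower in TAM than in Total tumor, 45 as reported, were 29 with only the groups compared and 29 to 44 without 1 library. Without 1 library, LLC was higher than TAM for 15 to 44 members and higher than Fibroblast for 28 to 48, and higher than Total tumor for 0 to 2 and lower for 0 to 1. Where such a fit leaves 1 library in a group, that library is assumed to vary like the others. Members higher in LLC than in TAM, 39 as reported, were 34 after upper-quartile rescaling, 34 with no filter and 28 after quantile normalization. With the length correction they were 46. Members higher in LLC than in Fibroblast, 47 as reported, were 42 after upper-quartile rescaling and 44 after quantile normalization. The S phase minus mitosis value of TAM, 0.45 as reported, was 0.51 with a pseudocount of 0.1, 0.33 with 5, 0.36 with the length correction, 0.60 without the 6 members of both phases and 0.67 as a median over members, which gave 0.36 in LLC, 0.10 in Fibroblast and 0.13 in Total tumor. The cause of these shifts was not tested. The labels number the libraries of a group 1 and 2, and do not say if same-numbered libraries share an animal or a batch. Deviations of same-numbered libraries correlated at 0.162 to 0.274 between sorted groups. Between Total tumor and the others they correlated at -0.361 to -0.179. A shared animal or batch was not tested. With a replicate block the members called were 40 for LLC minus TAM, 47 for LLC minus Fibroblast, 8 for TAM minus Fibroblast, 43 for TAM minus Total tumor, 49 for Fibroblast minus Total tumor and 0 for LLC minus Total tumor. Few reads limit Fibroblast 2, where Ccnb1 rests on about 3.2 reads.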
